A study of Mus musculus with 242 samples.

Results

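Cyp1a1, Cyp1a2, Cyp1b1, Tiparp and Ahrr are marker genes of the aryl hydrocarbon receptor (AhR), and their levels are described here in the livers of female B6C3F1 mice given 26 chemicals for 13 weeks. They are 5 of the 18194 genes measured on the arrays. Each gene was read from its brightest probe set (a group of short probes read as 1 value), judged by the mean of the 242 arrays. All 5 were measured. Cyp1a1 and Cyp1a2 had 1 probe set each, Ahrr had 1, and Cyp1b1 and Tiparp had 3 each.

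The AhR is a receptor in the cytoplasm, held by chaperones, that moves to the nucleus when it binds flat aromatic compounds such as dioxins and polycyclic hydrocarbons. There it pairs with Arnt and binds short DNA elements beside its target genes. Cyp1a1, Cyp1a2 and Cyp1b1 encode enzymes that oxidise such compounds, Tiparp encodes an ADP-ribosyltransferase that dampens the receptor, and Ahrr encodes a repressor that competes with it for Arnt. In liver, Cyp1a2 is made by hepatocytes without any inducer, mainly around the central vein, whereas Cyp1a1 is close to silent until the receptor is activated.

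The mice were dosed from 5 to 18 weeks of age in 46 treated groups (183 arrays) beside 14 control sets (59 arrays), with 1 mouse on each array and 3 to 5 mice in a group. In feed, at the doses in ppm, were malathion (14800 in the dose label, though the array titles carry 16000), diazinon (200), 4-nitroanthranilic acid (10000), 2,2-bis(bromomethyl)-1,3-propanediol (1250), 1,5-naphthalenediamine (2000), N-(1-naphthyl)ethylenediamine dihydrochloride (2000), pentachloronitrobenzene (8187), 1-amino-2,4-dibromoanthraquinone (20000) and tris(2,3-dibromopropyl)phosphate (1000), against mice on rodent chow alone. By gavage in corn oil, at the doses in mg/kg, were 1,4-dichlorobenzene (100, 300, 400, 500 and 600), 1,2,3-trichloropropane (2, 6, 20, 40 and 60), benzene (100), coumarin (200), 2,3-benzofuran (240), 1,2-dibromoethane (62), iodoform (93) and trichlorofluoromethane (3925); 2-chloromethylpyridine hydrochloride (250) and N-methylolacrylamide (50) were given in distilled water. Inhaled were naphthalene (0.5, 3, 10, 20 and 30 ppm), methylene chloride (100, 500, 2000, 3000 and 4000 ppm), propylene glycol mono-t-butyl ether (25, 75, 300, 800 and 1200 ppm), ethylene oxide (100 ppm), tetrafluoroethylene (1250 ppm), a compound labelled tetrafluororethane (50000 ppm) and vanadium pentoxide (2 mg/m3), against air. The arrays came from 4 runs, called A to D here after the run codes in the labels, and each treated group was compared only with controls of its own run and vehicle.

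Levels are log2 of the array signal plus 17.32, so a difference of 1 is a doubling and differences of dim genes are understated. A gene was called changed at an adjusted p under 0.05 (limma, Benjamini-Hochberg over all genes of the comparison) where it also differed by 1.5-fold or more. The hepatocyte markers summed to signals between 181900 and 518800 on all arrays, and the 5 of 5 hepatocyte markers had a median signal above the pseudocount. In whole liver, a change in the number of cells of a type and a change in RNA per cell cannot be told apart.

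Cyp1a1 and Cyp1a2 lie side by side on mouse chromosome 9 and are read in opposite directions (GRCm38.p6, RefSeq), with the 2 start sites used here 13958 bases apart. The 250 bases before each start are shown because these 2 genes carry all of the called changes in treated groups. Capitals mark GCGTG, the core of the element that the AhR and Arnt bind, searched on both strands. The Cyp1a1 window is chr9:57697363-57697612 on the plus strand, and the Cyp1a2 window is chr9:57683656-57683905 on the minus strand. Each is written 5′ to 3′ along its gene.
Cyp1a1: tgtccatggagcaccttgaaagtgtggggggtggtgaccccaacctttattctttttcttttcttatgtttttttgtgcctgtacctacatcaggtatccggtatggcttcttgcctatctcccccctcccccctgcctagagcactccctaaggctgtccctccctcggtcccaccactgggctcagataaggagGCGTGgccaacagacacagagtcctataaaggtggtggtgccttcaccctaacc
Cyp1a2: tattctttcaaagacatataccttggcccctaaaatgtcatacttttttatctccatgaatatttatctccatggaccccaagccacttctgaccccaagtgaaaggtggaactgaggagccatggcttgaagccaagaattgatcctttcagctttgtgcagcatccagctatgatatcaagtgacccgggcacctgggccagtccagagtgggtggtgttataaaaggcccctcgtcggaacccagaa
The Cyp1a1 window held 1 core match, starting 54 bases before the start site, and the Cyp1a2 window held 0. Over the longer windows of 300 bases (250 before to 50 after the start), Ahrr held 3 matches, Cyp1b1 held 1 and Tiparp held 1. The core was found in 32.4% of all 32851 windows of that length, and the longer form TNGCGTG, which contains the core, in 5.07%. Of the 5 genes, Ahrr alone held the longer form in its window. The 5 genes matched 5 entries of the RefSeq promoter table, and a match is a stretch of letters, not a measured binding site.

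In the controls, Cyp1a2 was bright and even. Its mean ran from 14.43 in a corn oil set to 14.82 in an air set, and no control array was below 14.07 or above 15.02. Cyp1a1 was dim, with set means from 6.53 to 7.61 and single arrays from 5.21 to 8.43. The spread within a control set was a median SD of 0.22 for Cyp1a2 and 0.43 for Cyp1a1. Tiparp, the ADP-ribosyltransferase, had set means from 7.62 to 9.18. Cyp1b1 and Ahrr were near the bottom of the scale: the Cyp1b1 signal was below the pseudocount on 81 of 242 arrays and that of Ahrr on 168 of 242. Small changes of these 2 genes were not detectable at that signal.

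**Figure D1:**
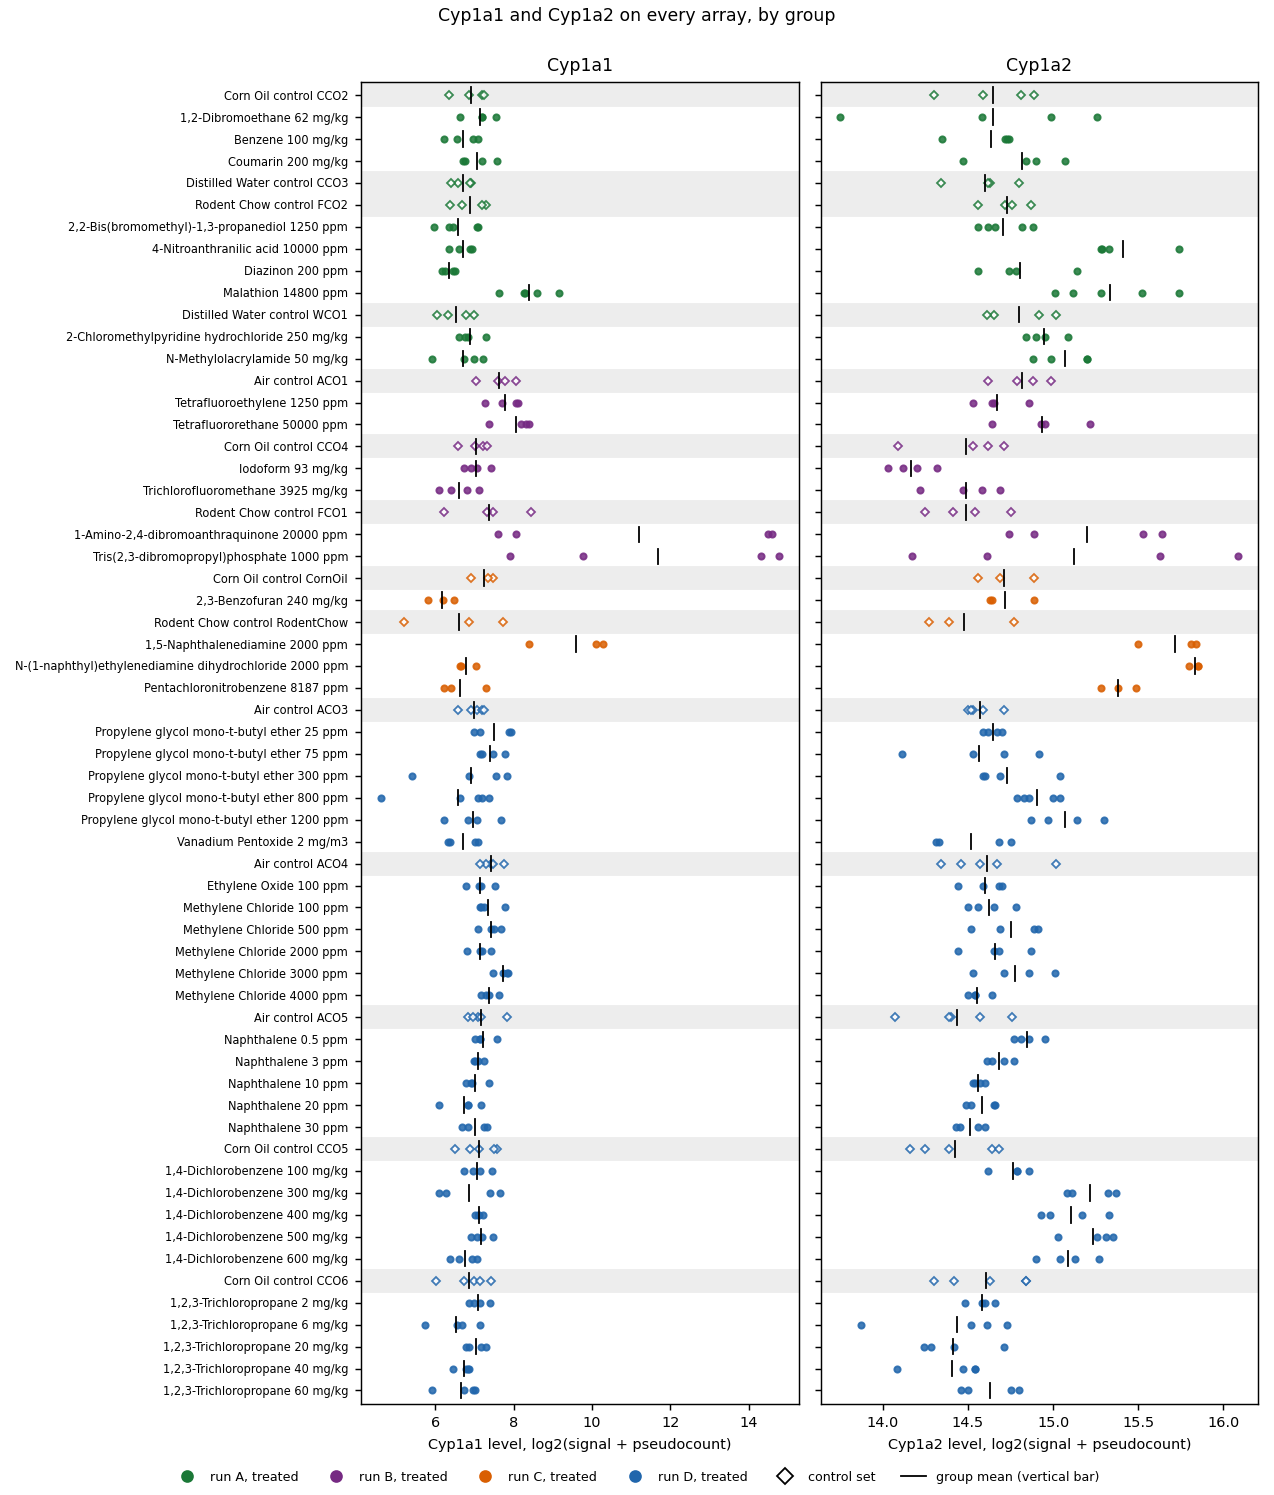
Levels of Cyp1a1 (left) and Cyp1a2 (right) on every array, as log2(signal + pseudocount), one row a group, with control sets in grey bands above their treated groups and a black bar at each group mean. Cyp1a1 stands out to the right on 4 arrays of run B at 14.33 to 14.77 and in the 1,5-naphthalenediamine and malathion rows, while Cyp1a2 is shifted in more rows and by less.

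Before the comparisons, 2 groups need a description. Cyp1a1 lay far apart within the 1-amino-2,4-dibromoanthraquinone group, an anthraquinone dye intermediate, and within the tris(2,3-dibromopropyl)phosphate group, a brominated flame retardant, which were fed in the same run (B). In the first, Cyp1a1 was 7.60, 8.07, 14.50 and 14.60. In the second it was 14.33, 14.77, 9.77 and 7.91. The 4 rodent chow controls of that run had 7.48, 8.43, 7.32 and 6.23, so in each group 2 arrays were far above all controls, 1 array of the flame retardant was moderately above them and the others were within their range. Cyp1a2 divided along the same arrays: it was 14.89, 14.74, 15.64 and 15.53 in the first group and 16.09, 15.63, 14.61 and 14.17 in the second, against 14.75, 14.41, 14.54 and 14.25 in the controls.

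The animal numbers in the array titles order these mice. The high arrays were animals 243 and 245 of the 1-amino-2,4-dibromoanthraquinone group and 248 and 252 of the tris(2,3-dibromopropyl)phosphate group. The low arrays were animals 237 and 241 of the former and 254 and 256 of the latter, so the 4 high mice had neighbouring numbers across the 2 labels. Nqo1, a quinone reductase gene listed here among other AhR targets, was 10.25 and 10.24 in animals 243 and 245. It was 10.10 and 10.24 in animals 248 and 252. It was between 8.71 and 9.04 in the other 4 treated mice and between 8.24 and 8.62 in the controls. Whether its level answered to the AhR or to another receptor was not tested. Of 7 genes that mark other receptors, Gstm3 and Cyp2b10 were read mouse by mouse and divided along the same arrays. As labelled, the 7 differed from controls by −1.34 to 2.41 with 1-amino-2,4-dibromoanthraquinone and by −0.79 to 2.08 with tris(2,3-dibromopropyl)phosphate, with 0 called in either group. Gstm3 was 14.75 to 15.13 in the high mice, 12.47 to 13.52 in the low mice and 11.11 to 12.47 in the controls. Cyp2b10 was 13.25 to 13.96, 10.79 to 12.85 and 9.49 to 11.21 in the same order. Whether the labels of these mice are right was not tested, and the groups were kept as labelled. The labels give an RNA integrity number for all low mice of both groups (8.8 or 8.9) and all controls (8.2 to 8.7). Of the high mice, animal 245 alone had one (8.9), so RNA integrity could not be compared across the split.

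As labelled, Cyp1a1 differed from controls by log2 3.83 ± 1.18 (SE, 4 against 4 mice) with 1-amino-2,4-dibromoanthraquinone and by 4.33 ± 1.18 with tris(2,3-dibromopropyl)phosphate. Neither was called (limma, adjusted p = 0.80 and 0.73). Their Cyp1a2 differences of 0.71 ± 0.27 and 0.64 ± 0.27 were not called either (limma, adjusted p = 1.00 for both). The wide spread also set the error of every Cyp1a1 comparison in run B: the SE was 1.18 there against 0.26 to 0.57 in the other runs, and it was 0.34 in run B once these 2 groups were left out. Without them, the Cyp1a1 differences of the other 4 treated groups of run B ran from −0.44 with trichlorofluoromethane to 0.46 with tetrafluororethane, and none was called (limma, lowest adjusted p = 0.83).

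Cyp1a1, the most inducible of the family, rose in 2 of the 46 treated groups and fell in 0. These were 1,5-naphthalenediamine, an aromatic amine, and malathion, an organophosphate insecticide. Over all 46 comparisons together, 0.331% of gene tests were called higher and 0.751% in either direction. Fitted on only the 2 groups compared, without the other arrays of the run, neither was called (limma, adjusted p = 0.17 for 1,5-naphthalenediamine and 0.059 for malathion). At an unadjusted p under 0.05, Cyp1a1 differed in 4 groups, and its median difference over the 46 was −0.04. The share of all genes at that unadjusted level is not given here. This count and those of the other genes below are therefore not read as results.

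With 1,5-naphthalenediamine, Cyp1a1 was 8.38, 10.11 and 10.28 against 5.21, 6.86 and 7.72 in the rodent chow controls of run C. All 3 treated mice were above all 3 controls. The difference was log2 3.00 ± 0.57 (SE), a 7.99-fold rise (limma, adjusted p = 0.013), in a comparison where 1.21% of all genes were called higher. Stab2, 1 of 4 endothelial markers, was called lower by log2 −0.90. The summed log2 signal was 12.27 to 12.87 against 13.04 to 13.27 for the 5 Kupffer cell markers and 16.38 to 16.53 against 16.59 to 16.63 for the 7 pericentral markers, with 0 of either list called. Their part in the Cyp1a1 and Cyp1a2 differences was not tested. The array of 10.11 was deposited at a lower scale than the rest and was rescaled; without it the difference was 2.74 with an adjusted p of 0.055. The call was also lost without the array of 10.28, at 2.65 with an adjusted p of 0.052. Without the control array of 5.21 the difference was 2.31 and still called (adjusted p = 0.031). With replicate 2 or 3 left out of every treated group at once, the adjusted p was 0.12 and 0.097.

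With malathion, Cyp1a1 was 8.30, 8.26, 8.59, 9.15 and 7.63 against 6.36, 7.30, 6.69 and 7.18 in the rodent chow controls of run A, so the groups did not overlap. The difference was log2 1.39 ± 0.26 (SE, 5 against 4 mice), a 2.61-fold rise (limma with the run code as a block, adjusted p = 0.000437), where 2.36% of all genes were called higher. Within the 2 run codes that held both groups it was 1.54 (2 treated, 3 control arrays) and 1.16 (3 treated, 1 control array). RNA integrity moved with the group, at 4.7 to 6.5 in the malathion mice that have a number and 6.7 to 7.2 in the controls. With the 2 arrays below 5 left out the difference was 1.47 (limma, adjusted p = 0.000416), and with the 3′ to 5′ signal ratio of Gapdh, a measure of RNA breakdown, as a covariate it was 1.43 (adjusted p = 0.00075).

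In the remaining groups, the Cyp1a1 differences ran from −1.08 to 0.50. The lowest was −1.08 ± 0.57 with 2,3-benzofuran (5.81, 6.20 and 6.47 against 7.46, 7.35 and 6.91). Those groups did not overlap, but the difference was not called (limma, adjusted p = 0.31). Ranked by group mean, tris(2,3-dibromopropyl)phosphate (11.70 ± 3.39, SD, n = 4), 1-amino-2,4-dibromoanthraquinone (11.19 ± 3.88, n = 4) and 1,5-naphthalenediamine (9.59 ± 1.05, n = 3) led, and malathion followed at 8.39 ± 0.55 (n = 5). Between neighbours in this order of 60 groups, 1 gap was wider than the larger SD of the pair, the one between 1,5-naphthalenediamine and malathion. The order sets runs side by side, whose baselines differ.

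Cyp1a2, which oxidises aromatic and heterocyclic amines, rose in 8 of the 46 groups and fell in 0. The 8 were N-(1-naphthyl)ethylenediamine dihydrochloride, 1,5-naphthalenediamine, pentachloronitrobenzene, malathion and 1,4-dichlorobenzene at 300, 400, 500 and 600 mg/kg. The rises were small in fold, from 1.55-fold to 2.56-fold, on a gene already among the bright ones. Fitted on only the 2 groups compared, 1 of the 8, malathion, kept its call, and the others had adjusted p-values of 0.084 with 1,5-naphthalenediamine, 0.16 with N-(1-naphthyl)ethylenediamine dihydrochloride, 0.22 with pentachloronitrobenzene and 0.12 to 0.33 at the 4 doses of 1,4-dichlorobenzene (limma). The difference was positive in 34 of the 46 groups, and in 12 of the 46 the treated and control arrays did not overlap. The same counts were not made over all genes, so neither is read as a result about Cyp1a2.

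N-(1-naphthyl)ethylenediamine dihydrochloride gave 15.80, 15.85 and 15.85 against 14.39, 14.27 and 14.77 in the rodent chow controls of run C. These 3 arrays lay close together (SD 0.026, beside 0.031 on the 4 arrays of naphthalene at 10 ppm) and well above all controls. The difference was log2 1.35 ± 0.15 (limma, adjusted p = 0.0064), where 0.236% of genes were called higher. RNA quality moved with this group: the RNA integrity number was 7.7 to 8.1 against 8.8 to 9.1 in the controls, and the log2 Gapdh 3′ to 5′ ratio was −0.06 to 0.16 against −0.33 to −0.22. The summed log2 signal of pericentral markers (16.68 to 16.84 against 16.59 to 16.63) and of periportal markers (16.53 to 16.68 against 16.24 to 16.36) was above that of all controls, with 0 of either list called. Ighm, 1 of 3 lymphocyte markers, was called lower by log2 −1.32, but the list went both ways, with a median of 0.71 and a highest of 1.73. The sum of the stellate cell and fibroblast markers was below that of all controls (13.22 to 13.32 against 13.37 to 13.79), with 0 of 6 called. The part of these in the Cyp1a2 difference was not tested. 1,5-Naphthalenediamine gave 15.50, 15.84 and 15.81, again above all 3 controls, and a difference of 1.24 ± 0.15 (limma, adjusted p = 0.000579).

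Pentachloronitrobenzene, a chlorinated fungicide, gave 15.28, 15.38 and 15.49 against the same 3 controls. The difference was 0.91 ± 0.15 (limma, adjusted p = 0.021), where 0.225% of genes were called higher. That call rested on most of its arrays: it was lost without any 1 of the 3 treated arrays (adjusted p = 0.060 to 0.071) and without either of 2 control arrays (both 0.064). Its Cyp1a1 was 6.40, 6.21 and 7.28, inside the range of the controls. The Gapdh ratio did not overlap here either, at −0.40 to −0.38 against −0.33 to −0.22, and its part was not tested.

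Malathion gave Cyp1a2 levels of 15.74, 15.52, 15.12, 15.01 and 15.28 against 14.72, 14.56, 14.87 and 14.76. No treated array reached down to the controls. The difference was 0.64 ± 0.19 (limma with the run code block, adjusted p = 0.038), and 0.60 with an adjusted p of 0.054 without the block. Within the run codes it was 0.84 and 0.57. It lost its call without malathion replicate 1 or 2 and without any 1 of the 4 controls (0.53 to 0.67, adjusted p = 0.058 to 0.14). Of all 19 fits that left out a single array, or a replicate number from every treated or every control group at once, 13 lost it (adjusted p up to 0.17). Of the 7 pericentral hepatocyte markers, 4 fell with malathion, Glul, Oat, Rhbg and Slc1a2, at log2 differences of −1.85 to −1.40, and the list's summed log2 signal was 15.82 to 16.36 against 16.53 to 16.71 in controls. Stab2, an endothelial marker, was also called lower, by log2 −0.77. Cyp1a2 is itself a pericentral gene, and the part of these shifts in its value was not tested.

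1,4-Dichlorobenzene, a moth repellent, was the one of the 5 chemicals given at 5 doses for which a group was called. Its corn oil controls had Cyp1a2 at 14.25, 14.64, 14.16, 14.68 and 14.39. At 100 mg/kg the 4 mice had 14.79, 14.62, 14.79 and 14.86, overlapping the controls by 1 array. The 100 mg/kg difference was 0.34 ± 0.13 and was not called (limma, adjusted p = 0.37).

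At 300 mg/kg Cyp1a2 was 15.08, 15.11, 15.37 and 15.32, and at 400 mg/kg it was 14.93, 15.33, 14.98 and 15.17. At 500 mg/kg it was 15.03, 15.35, 15.31 and 15.26, and at 600 mg/kg it was 14.90, 15.13, 15.27 and 15.04. All 16 of these arrays were above the highest control. From 300 mg/kg on the level made a plateau: the differences from control were 0.80, 0.68, 0.81 and 0.66 in order of dose, each ± 0.13 (SE), with adjusted p-values of 7.3e-06, 0.000534, 3.9e-06 and 0.000413 (limma). The shares of all genes called higher at these doses were 0.737%, 0.313%, 0.561% and 0.533%.

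The trend over the doses gave a fitted rise of 0.65 ± 0.11 from control to 600 mg/kg (limma, adjusted p = 9.5e-06), where 0.808% of genes were called higher. Against the 2 corn oil sets of run D pooled, the 600 mg/kg difference was 0.57 ± 0.11, under the 1.5-fold limit, with an adjusted p of 0.000469. After quantile normalisation the 300 and 400 mg/kg differences (0.57 and 0.56) and the trend (0.55) were also under that limit. Cyp1a1 showed no such rise: its differences at the 5 doses ran from −0.37 to 0.04, and its trend was −0.19 ± 0.26 (limma, adjusted p = 0.81). RNA integrity numbers were 7.1 to 7.9 in the treated and 7.6 to 7.9 in the control mice. The log2 Gapdh 3′ to 5′ ratio was lower than in all controls (−0.41 to −0.12) at 100, 300, 400 and 500 mg/kg, with all values between −0.59 and −0.48, and overlapped them at 600 mg/kg (−0.36 to −0.28). Cell markers were called singly, Krt19 lower and Ass1 higher at 300, Lgr5 lower at 500 and Rhbg higher at 600 mg/kg, with Ighm and Rhbg rising in the trend, while the pericentral sums overlapped the controls at every called dose. The part of these in the Cyp1a2 rise was not tested.

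**Figure D2:**
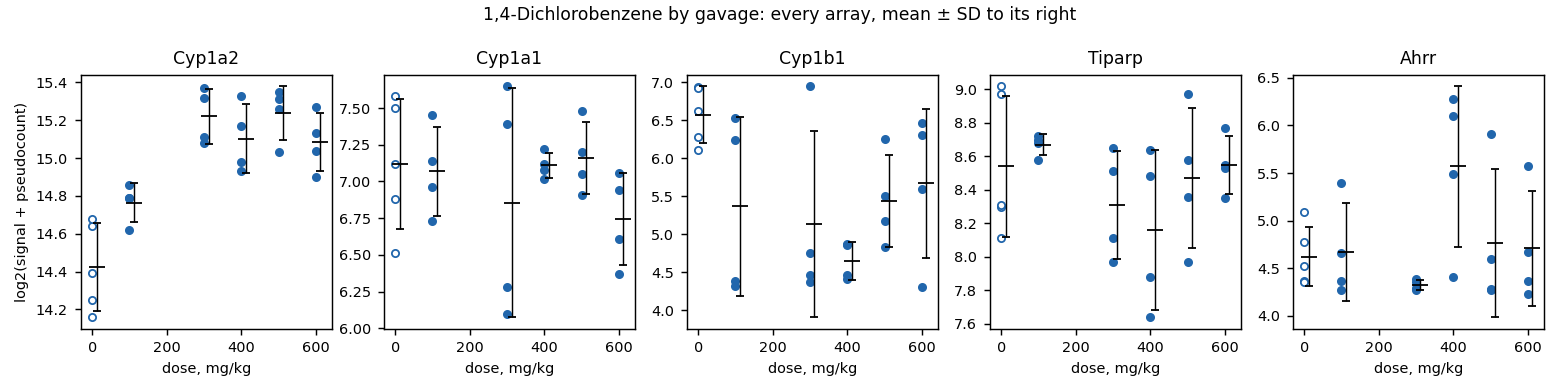
Levels of the 5 genes against the dose of 1,4-dichlorobenzene in mg/kg, with open circles for the 5 corn oil controls, filled circles for the 4 mice a dose, and mean ± SD to the right of each; each panel has its own vertical axis. The Cyp1a2 arrays of 300 mg/kg and above all lie above the controls, which Cyp1a1 arrays do not.

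Other inhaled or fed groups came near the limits for Cyp1a2. 4-Nitroanthranilic acid gave 15.29, 15.74, 15.33 and 15.28, all above its 4 controls (the chow controls of the malathion group). The difference of 0.68 ± 0.20 was past the fold limit but was not called (limma, adjusted p = 0.27), and 1 of 3 measured pancreas acinar markers was called higher in that group (summed log2 signal 6.37 to 12.61 against 5.72 to 5.92 in controls); its part in the Cyp1a2 difference was not tested. Naphthalene at 0.5 ppm gave 14.77, 14.81, 14.95 and 14.86, and the difference of 0.41 ± 0.13 passed the p limit (limma, adjusted p = 0.039) below the fold limit. The higher naphthalene doses gave smaller differences, 0.25 at 3 ppm, 0.12 at 10 ppm, 0.14 at 20 ppm and 0.08 at 30 ppm, so its trend was flat at −0.08 ± 0.11.

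Propylene glycol mono-t-butyl ether gave Cyp1a2 differences of 0.07, 0.00, 0.16, 0.33 and 0.50 from 25 to 1200 ppm. Its trend, a fitted rise of 0.49 ± 0.11, passed the p limit (limma, adjusted p = 0.0078) but not the fold limit. For methylene chloride the 5 doses ranged from −0.06 to 0.17, and for 1,2,3-trichloropropane from −0.20 to 0.02, with no trend called. Iodoform had the lowest group mean of all, 14.17 ± 0.12 (SD, n = 4), and a difference of −0.32 ± 0.27 that was not called.

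Ranked by group mean, Cyp1a2 was highest with N-(1-naphthyl)ethylenediamine dihydrochloride (15.83 ± 0.03, SD, n = 3) and 1,5-naphthalenediamine (15.72 ± 0.19, n = 3), which did not differ beyond their spread. The gap to the next group, 4-nitroanthranilic acid (15.41 ± 0.22, n = 4), was wider than either SD. Below it, 1 further gap was wider than the larger SD, the last one above iodoform.

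**Figure D3:**
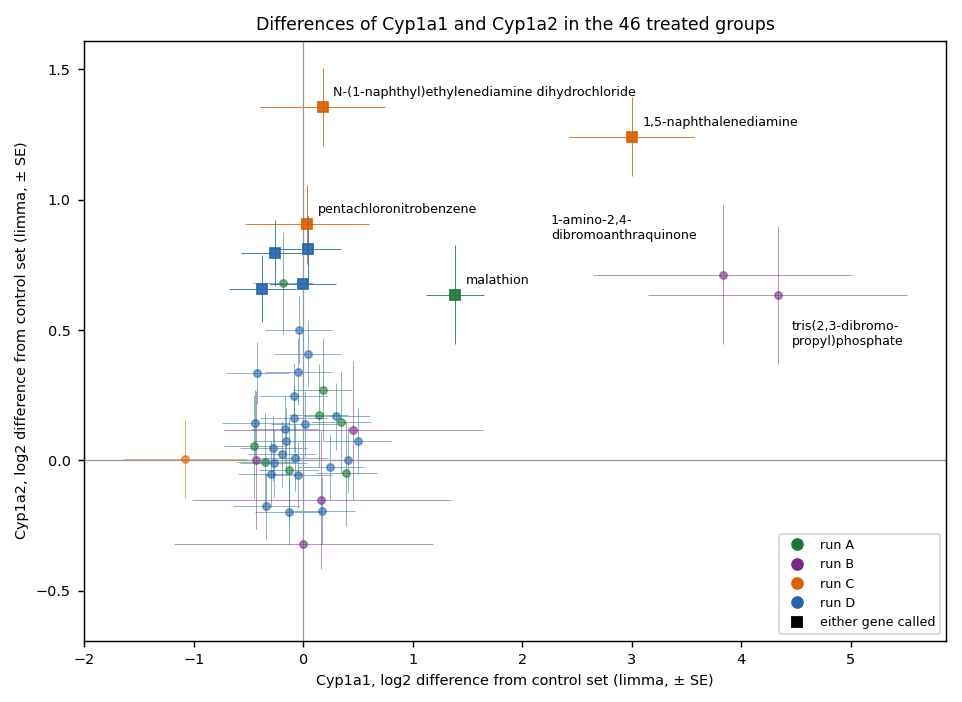
Differences of Cyp1a1 (horizontal) and Cyp1a2 (vertical) from the control set in the 46 treated groups, in log2 units with SE bars from limma; squares are groups where either gene was called, and colours are runs. In the plot, 6 of the 8 squares stand high on the Cyp1a2 axis with Cyp1a1 between −0.37 and 0.18, and 1,5-naphthalenediamine and malathion are shifted on both.

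The 2 naphthylamines were fed at the same dose of 2000 ppm in the same run and share their controls. 1,5-Naphthalenediamine carries a free amino group on both rings, while the other has an aminoethyl chain on the nitrogen of a single ring and is a dihydrochloride. Compared with each other, Cyp1a1 was higher with 1,5-naphthalenediamine by log2 2.82 (95% interval 1.60 to 4.04; limma, adjusted p = 0.029), and all 3 of its arrays (8.38 to 10.28) were above the 3 of N-(1-naphthyl)ethylenediamine dihydrochloride (7.03, 6.62 and 6.66). Of all genes, 0.923% were called in this comparison in either direction. The RNA integrity numbers of the 2 groups did not overlap (8.8 to 8.9 against 7.7 to 8.1), and Ighm (1.84) and the pericentral marker Slc1a2 (−1.14) were called, with their part not tested. The 3 lymphocyte markers, Ighm among them, had a median of −0.59. Cyp1a2 differed by −0.11 (95% interval −0.44 to 0.21; limma, adjusted p = 0.81). This was the 1 pair of compounds compared. The Cyp1a1 difference fell short of the call without any 1 of the 3 arrays of N-(1-naphthyl)ethylenediamine dihydrochloride (2.75 to 2.95, adjusted p = 0.069 to 0.10), without the rescaled array (2.56, adjusted p = 0.10) and without replicate 3 of 1,5-naphthalenediamine (2.48, adjusted p = 0.13).

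In the 8 groups where Cyp1a2 was called, the difference between the Cyp1a2 change and the Cyp1a1 change within the same arrays was tested by exact permutation over arrays, a test chosen after the values were seen. The groups were picked on the same Cyp1a2 values, which favours a larger Cyp1a2 change, and changes of the dim Cyp1a1 are understated. The change of Cyp1a2 exceeded that of Cyp1a1 by log2 0.68 to 1.05 in the 4 groups of 1,4-dichlorobenzene, which share their controls (exact permutation test, two-sided, p = 0.016 to 0.048, 0.063 to 0.095 after Benjamini-Hochberg over the 8 tests). With N-(1-naphthyl)ethylenediamine dihydrochloride the difference was 1.18 (exact p = 0.20) and with pentachloronitrobenzene 0.87 (exact p = 0.40). It was the other way by 0.90 with malathion (exact p = 0.095) and by 1.76 with 1,5-naphthalenediamine (exact p = 0.20). With 3 against 3 arrays the smallest p possible was 0.10. Such groups could not pass whatever their values, yet they counted among the 8 tests of the adjustment. No group passed after it, and no conclusion on equal or unequal change of the 2 genes is drawn from that.

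**Figure D4:**
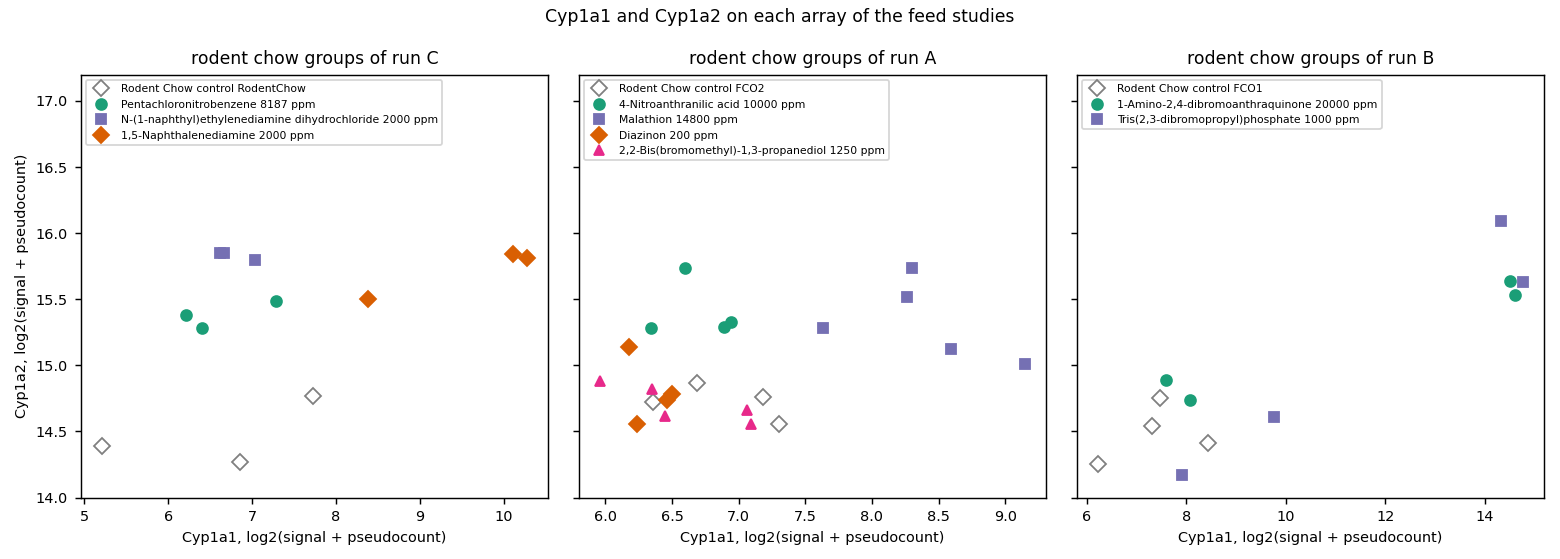
Cyp1a1 (horizontal) against Cyp1a2 (vertical) on each array of the feed studies, in log2(signal + pseudocount), 1 panel a run, with open diamonds for rodent chow controls; the horizontal axes differ. In run C, 1,5-naphthalenediamine lies to the upper right and the other 2 chemicals straight above the controls; in run B, 2 arrays of each treated group lie at Cyp1a1 levels of 14.33 to 14.77 and the others between 7.60 and 9.77.

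Cyp1b1, the family member expressed mostly outside hepatocytes, was called in 0 of 46 groups (limma), with 6 at an unadjusted p under 0.05. Without the share of all genes at that level, the 6 are not read as a result about Cyp1b1. Its largest decrease was with 1,4-dichlorobenzene at 400 mg/kg, where the arrays were 4.41, 4.86, 4.87 and 4.46 against 6.11, 6.62, 6.94, 6.28 and 6.93. All 4 treated arrays were below the pseudocount and the difference was −1.93 ± 0.53 (limma, adjusted p = 0.056). The controls here had the highest Cyp1b1 mean of all 60 groups, 6.58 ± 0.38 (SD, n = 5), and the other probe sets of the gene differed by 0.10 and −0.34 in the same groups. The other decreases at an unadjusted p under 0.05 were −1.21, −1.44 and −1.13 with 100, 300 and 500 mg/kg of the same chemical and −1.29 with benzene, and the single increase was 1.39 with tris(2,3-dibromopropyl)phosphate (limma, adjusted p from 0.11 to 1.00).

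With malathion Cyp1b1 was 4.43, 6.54, 7.00, 5.87 and 6.13 against 5.83, 5.27, 4.46 and 4.78, and with 1,5-naphthalenediamine it was 5.22, 4.92 and 5.92 against 5.38, 5.85 and 6.59. Both pairs of groups overlapped. In the 4 mice of run B with Cyp1a1 at 14.33 or more, Cyp1b1 was 6.21, 5.44, 7.32 and 6.49. These values lie within the range of 4.34 to 7.38 of the control arrays of the whole series.

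Tiparp, the receptor's brake, was called in 0 of 46 groups (limma), with 0 at an unadjusted p under 0.05. Its differences ran from −0.54 ± 0.27 with tetrafluororethane to 0.32 ± 0.25 with naphthalene at 20 ppm. In the groups where Cyp1a1 rose, Tiparp was 8.35, 9.28 and 8.95 with 1,5-naphthalenediamine against 8.86, 9.24 and 8.89 in its controls. It was 8.44, 8.71, 8.43, 8.78 and 9.09 with malathion against 8.95, 9.05, 9.14 and 9.10. In the 4 mice of run B with high Cyp1a1 it was 7.56, 7.85, 8.21 and 7.35, and 3 of these were below the 7.89 to 8.55 of their controls. The groups did not overlap for pentachloronitrobenzene, at 8.71, 8.80 and 8.85 against the same controls as 1,5-naphthalenediamine, a difference of −0.21 (limma, adjusted p = 0.75). Of the dimmer probe sets of Tiparp, 1 was lower without overlap with 1,5-naphthalenediamine (7.28 to 8.17 against 8.55 to 8.91, a difference of −0.89), N-(1-naphthyl)ethylenediamine dihydrochloride (−0.94) and pentachloronitrobenzene (−0.43), which the other 2 were not with the naphthylamines. With the mean of its 3 probe sets in place of the brightest, Tiparp was called lower with 2,3-benzofuran, at −0.66 ± 0.16 (limma, adjusted p = 0.039) against −0.35 (adjusted p = 0.37).

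Ahrr, the repressor, was called in 0 of 46 groups (limma), with 5 at an unadjusted p under 0.05. These were 0.94 ± 0.42 with 1,4-dichlorobenzene at 400 mg/kg, 0.90 with naphthalene at 10 ppm, 0.82 with malathion, 0.79 with tris(2,3-dibromopropyl)phosphate and −0.86 ± 0.37 with tetrafluororethane. Without the share of all genes at that level, the 5 are not read as a result about Ahrr. With malathion it was 5.74, 5.77, 6.34, 4.64 and 4.33 against 4.25, 4.34, 5.58 and 4.25, a difference of 0.82 ± 0.40 (limma, adjusted p = 0.28). In the 2 groups of run B with divided Cyp1a1, Ahrr on the high arrays was 4.26, 4.24, 5.87 and 4.57, inside the range of 4.23 to 6.11 of all control arrays.

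Over the 5 chemicals with 5 doses, the Cyp1a2 trend with 1,4-dichlorobenzene was the single trend called among the 5 genes, against 1.11% of gene trends called over all genes. The lowest adjusted p for a trend of the other genes was 0.52 for Cyp1a1, 0.54 for Cyp1b1, 0.57 for Tiparp and 0.69 for Ahrr (limma).

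The vehicle itself was compared among the control sets. In 8 comparisons of vehicles within runs, Cyp1a1, Cyp1a2 and Cyp1b1 were not called in any (limma, lowest adjusted p = 0.65, 0.38 and 0.47). Over those 8 comparisons 5.29% of all gene tests were called. In run B, Tiparp was higher in corn oil controls (8.25, 8.88, 9.0 and 8.23) than in air controls (7.57, 7.47, 6.94 and 8.50), with 1 air array inside the corn oil range, by 0.97 ± 0.27 (limma, adjusted p = 0.0062). Ahrr was lower in the same corn oil controls (4.27, 5.14, 4.33 and 4.39) than in air (5.83, 5.50, 5.13 and 5.51), with 1 array of each just overlapping, at a difference of −0.96 ± 0.37 (limma, adjusted p = 0.048).

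That vehicle comparison is one in which 28.5% of all genes were called, so 2 of 5 genes there stands beside a high background. Of its stellate cell and fibroblast markers 3 of 6 were higher in corn oil (Dcn, Lrat and Rgs5) and 1 lower (Col1a1), with a summed log2 signal of 13.10 to 13.19 against 12.26 to 13.04. Markers of other cell types were called too. The endothelial Pecam1 (1.65), Kupffer cell Vsig4 (1.25), lymphocyte Ighm (2.57) and pericentral Slc1a2 (0.98) were higher in corn oil. The medians of their lists were 0.67 for endothelial, 0.24 for Kupffer cell, −0.52 for lymphocyte and 0.14 for pericentral markers. The pericentral Rhbg (−1.57), bile duct Krt19 (−1.21) and erythroid Alas2 (−1.09) were lower. The part of all these markers in the Tiparp and Ahrr differences was not tested. With single arrays left out in turn the Tiparp difference was 0.75 to 1.26 and kept its call in all 8 fits (limma, highest adjusted p = 0.046). It was not called with replicate 3 (0.61, adjusted p = 0.14) or replicate 2 (0.83, adjusted p = 0.074) left out of every control set at once. Leaving out any 1 of the 4 air arrays ended the Ahrr call, as did leaving out corn oil array 1, 3 or 4 (−1.08 to −0.85, adjusted p = 0.051 to 0.13). With replicate 1 left out of every control set it was −0.76 (adjusted p = 0.23). RNA integrity numbers were 8.3 to 8.6 in the corn oil and 8.7 to 8.9 in the 2 air mice that have one, the log2 Gapdh ratio was −0.64 to −0.62 against −0.54 to −0.40, and the part of RNA quality in these differences was not tested. In run D the corn oil minus air difference was 0.30 ± 0.15 for Tiparp (limma, adjusted p = 0.35) and −0.05 ± 0.26 for Ahrr (adjusted p = 0.96).

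**Figure D5:**
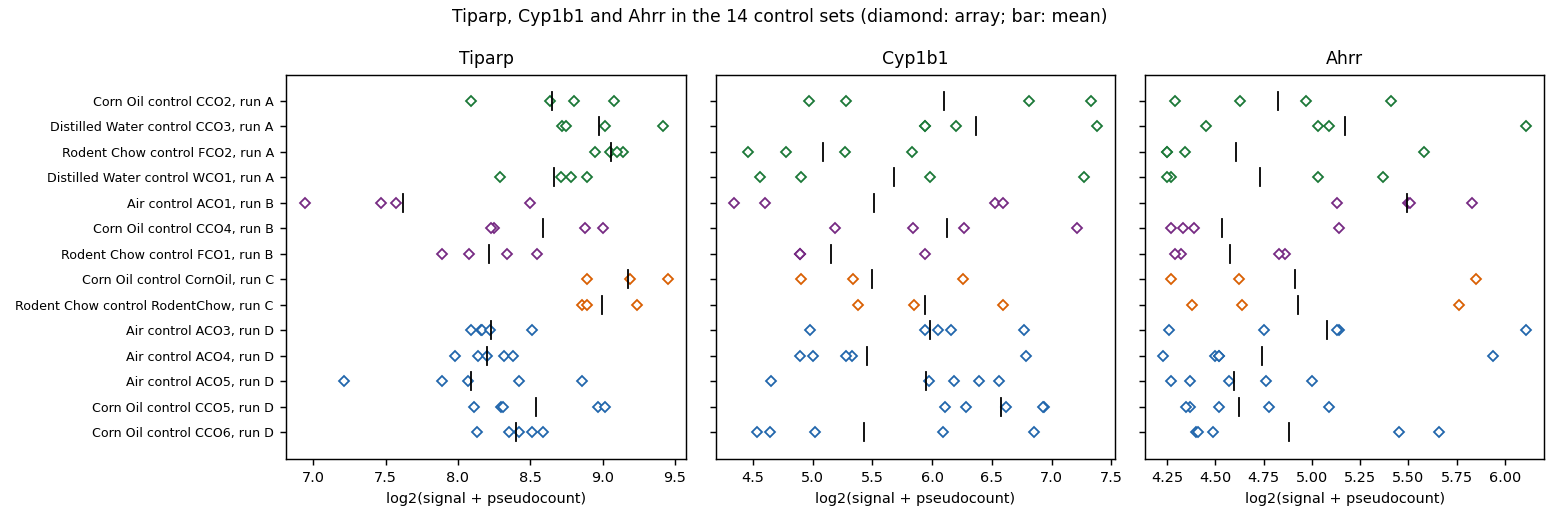
Levels of Tiparp, Cyp1b1 and Ahrr in the 14 control sets, as log2(signal + pseudocount), with a diamond an array and a bar at the mean. Tiparp is lowest in the air controls of run B (mean 7.62), and many Cyp1b1 and Ahrr arrays lie at the lower end of the scale.

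Other genes of the pathway were taken from a list. Of 6 genes of the receptor machinery, 3 were measured (Ahr, Arnt and the chaperone Hsp90aa1), and 0 of the 3 were called in any of the 46 treated groups (limma). In the corn oil against air comparison of run B, where 28.5% of all genes were called, 1 of the 3 was called. Ahr was higher in corn oil by 1.11 ± 0.25 (limma, adjusted p = 0.0013). Of 9 other AhR target genes, 6 were measured.

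With malathion 1 of these 6 rose and 1 fell, with a median of log2 0.23 against −0.03 over all genes. The one that rose was Nqo1, the quinone reductase, by 1.51 ± 0.23 (limma, adjusted p = 1.6e-05), and the one that fell was Socs2, a brake on growth hormone signalling, by −2.62 ± 0.49 (adjusted p = 0.000358). With 1,5-naphthalenediamine 1 of the 6 rose and 0 fell: Nqo1 by 1.45 ± 0.30 (limma, adjusted p = 0.019). The list's median was 0.14 against −0.12 over all genes.

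With N-(1-naphthyl)ethylenediamine dihydrochloride 1 of the 6 rose, Fmo2, a flavin monooxygenase gene, by 1.32 ± 0.26 (limma, adjusted p = 0.040). With pentachloronitrobenzene 0 of the 6 changed. With 1,4-dichlorobenzene 1 of the 6 rose at 300 mg/kg, Nqo1 by 0.76 ± 0.17 (limma, adjusted p = 0.0053), and 0 at 400, 500 and 600 mg/kg. Over the 46 groups, Nqo1 was called higher in 5, Fmo2 higher in 1 and lower in 3, and Socs2 lower in 1. Aldh3a1, Cyp2s1 and Nfe2l2 were called in 0. Over all genes, 0.751% of tests were called in either direction. Whether the Nqo1 rises came through the AhR or through another receptor was not tested.

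Genes that mark other receptors moved in the same groups. Of 7 such genes, 4 rose with malathion. They were Cyp2c55 (by log2 5.61 ± 0.38) and Cyp2b10 (3.60 ± 0.50), which answer to the receptors CAR and PXR, and Gstm3 (3.30 ± 0.35) and Gclc (1.76 ± 0.27), which answer to NRF2. Cyp3a11, also listed for CAR and PXR, was called in 0 of the 46 treated groups (limma). Its differences ran from −0.17 to 0.47. With 1,4-dichlorobenzene, Cyp2c55, Cyp2b10 and Gstm3 rose at all 4 doses from 300 mg/kg up, Cyp2c55 by 2.99 at 300 and 4.64 at 600 mg/kg. Acot1, a target of PPARA, fell at 300 and 600 mg/kg, by 1.93 and 1.31 on the log2 scale, as did Cyp4a14, another such target, at 600 mg/kg (−1.37), and Gclc rose at 500 mg/kg (0.70). With 1,5-naphthalenediamine the same 3 rose, by 1.52, 1.56 and 3.28. With pentachloronitrobenzene 1 of the 7 rose, Gstm3 by 2.08 ± 0.29, and with N-(1-naphthyl)ethylenediamine dihydrochloride 0 of the 7 changed. Between the 2 naphthylamines, Gstm3 was higher with 1,5-naphthalenediamine by 2.29 ± 0.29 (limma, adjusted p = 0.0019) and Gclc by 1.25 ± 0.21 (adjusted p = 0.010).

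The genes whose pattern was most like that of Cyp1a2 were sought over the 60 group means, each taken relative to the mean of its run. They were Abcc3, an efflux transporter gene (Pearson r = 0.76), Creg1 (0.73), Cyp2b10 (0.70), Cyb5a, the cytochrome b5 gene (0.67), and Pgap2 (0.63). Without the 2 naphthylamine groups, the 2 farthest from the median, r was 0.78, 0.78, 0.74, 0.69 and 0.62. For Cyp1a1 the 5 were Dglucy (0.58), Slc35d1 (0.58), Slc46a3 (0.56), Rabl3 (0.56) and Sec16b (0.54), and without the 2 brominated feed groups r fell to between 0.38 and 0.45. Cyp1a1 and Cyp1a2 themselves had r = 0.47 over the 60 means. Spearman's rho was 0.55 to 0.75 for the 5 genes of Cyp1a2 and 0.25 to 0.47 for those of Cyp1a1. The group means share runs and control sets, and these values are descriptions.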

How the data were processed

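Liver RNA of single mice was labelled and hybridised to Mouse430_2 arrays. The authors deposited 1 linear signal intensity for each of 45101 probe sets an array, with GCOS 1.0 per the submitters' processing notes. The deposited intensities of 240 arrays had a trimmed mean of 500 (2% off each end); the other 2 (1,5-naphthalenediamine replicate 2 at 84.53, vanadium pentoxide replicate 4 at 148.4) were multiplied to it. Computed here: log2(intensity + 17.32), the brightest probe set for each of 18194 genes (34945 probe sets had 1 gene symbol, 10092 none or several), and limma 3.58.1 (R 4.3.3) on each run apart, with the run code as a block in run A. The labels place each treated group by run and vehicle, and of several control sets the one whose animal numbers follow was used. A dose trend is linear in the rank of the dose. Named genes were the 5 genes, called genes of the pathway lists, and for Cyp1a1 and Cyp1a2 the 5 genes of highest correlation over group means. Genes and lists were chosen with earlier results of these data known. Replicates are separate mice per the labels. Alternatives covered scaling, pseudocount, dim genes, probe set choice, controls, block, RNA quality and left-out arrays. The fit was tested on simulated data. The number of arrays limits the precision.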

Additional observations from a re-analysis of the deposited data

Results flagged for a closer look

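Within groups of 4 to 10 arrays, 23 of 270 sets of 1 gene in 1 group (8.5%) held an array apart from the others by Dixon's criterion, which chance gives in about 1 of 20 sets. Ahrr accounted for 11 of them and Cyp1b1 for 5, the 2 genes near the bottom of the scale.

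For Cyp1a2, the array apart was 15.74 with 4-nitroanthranilic acid (the others 15.28 to 15.33), 14.35 with benzene (14.72 to 14.74) and 14.08 with 1,2,3-trichloropropane at 40 mg/kg (14.47 to 14.54). For Cyp1a1 it was 4.60 at 800 ppm of propylene glycol mono-t-butyl ether (6.63 to 7.36) and 7.79 with methylene chloride at 100 ppm (7.15 to 7.23). For Tiparp it was 6.92 with 1,2,3-trichloropropane at 6 mg/kg (8.58 to 8.80) and 9.09 with diazinon (8.60 to 8.68).

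For Cyp1b1 the array apart was high in each case. It was 6.71 with 1,2,3-trichloropropane at 6 mg/kg, on the array where Tiparp was low, 6.95 with 1,4-dichlorobenzene at 300 mg/kg, 6.45 with naphthalene at 3 ppm, 6.79 in an air control set of run D and 5.94 in the rodent chow controls of run B.

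For Ahrr the array apart was also high in each case. In treated groups it was 5.51 with 1,2,3-trichloropropane at 40 mg/kg, 5.65 with 1-amino-2,4-dibromoanthraquinone, 5.23 with ethylene oxide, 5.69 with N-methylolacrylamide, 5.97 with tetrafluoroethylene and 5.48 with tetrafluororethane. It was 6.16 at 25 ppm and 6.08 at 75 ppm of propylene glycol mono-t-butyl ether. In controls it was 5.94 in an air set of run D, 5.14 in the corn oil set of run B and 5.58 in the rodent chow set of run A.

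The Cyp1a1 change differed between the 2 naphthylamines by log2 2.82, tested directly as a contrast in limma.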

How the results depend on the processing

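No paired analysis was possible because the replicate numbers were given in accession order and pair no mice. Fitted on only the 2 groups compared, 0 Cyp1a1, 1 Cyp1a2 and 1 Cyp1b1 groups were called (limma), against 2, 8 and 0 with all arrays of a run. With the values as deposited, 3 Cyp1a2 groups were called, and without the 2 rescaled arrays 1 Cyp1a1 group. With the mean of all probe sets 1 Tiparp group was called. With arrays left out, 1 to 2 Cyp1a1 and 5 to 8 Cyp1a2 groups were called. Of the dose trends, 1 was called, 2 by adjusted p alone and 0 after quantile normalisation, where the 1,4-dichlorobenzene value was 0.55. Of the vehicle differences, 2 were called, 1 with a pseudocount 4 times higher, 1 with dim genes left out, and 0 to 3 with arrays left out. Between the naphthylamines 1 gene was called, and 0 with the values as deposited, a pseudocount 4 times lower, only the 2 groups, or without the rescaled arrays, and 0 to 1 with arrays left out. No called difference reversed its direction under these alternatives. Differences that were not called could depend on the probe set. For Tiparp with N-(1-naphthyl)ethylenediamine dihydrochloride the probe sets gave 0.29, 0.29 and −0.94. Calls of Cyp1a1 with malathion held in 19 of 19 fits with an array or a replicate number left out, and those of Cyp1a2 with 1,4-dichlorobenzene in 20 of 20 at each of the 4 called doses. The cause of the other changes was not tested. Leaving out the 2 brominated feed groups, the rescaled arrays or single arrays (also of control sets) was chosen after seeing the data.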
